A study of Mus musculus with 3 samples.

Results

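Mouse T lineage cells exposed for 72 h to pAsc, which is phospho-ascorbate, a vitamin C derivative, were set against untreated cells of the same age in culture on 1 array, which is 1 of the 3 arrays in the series. The comparison covers 16288 genes that were well above background in both channels of that array, of 27727 genes with a name or clone identifier on it. The treated cells were labelled with Cy5 and came from bone marrow progenitors of C57BL/6 mice, grown for 17 days with the cytokines Flt3L and IL7 on OP9-DL1, a mouse marrow stroma line engineered to carry the Notch ligand Dll1, with 800 µM pAsc present over the last 72 h. The untreated cells were labelled with Cy3 and had the same origin, stroma, cytokines and 17 days of culture, without pAsc. The other T cell array held cells given pAsc for 24 h of a 14-day culture, against untreated cells of that age, and the stromal array held OP9-DL1 cells alone (strain B6-C3Hf1, cell type given as osteoblast), with pAsc for 24 h and untreated. Stromal cells were removed from the T cells only by adherence for 30 min, and the age, sex and number of mice are not given in the sources used here.

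T lineage cells arise when a blood progenitor meets a Notch signal, which turns down the programmes of other blood lineages and of the progenitor itself. The cells then rearrange their receptor genes, pass a first checkpoint, take up the coreceptors CD8 and CD4, and undergo positive selection, the step that the title of the series names. Ascorbate keeps iron in its reduced state in a family of dioxygenases, among them the TET enzymes that oxidise methylated cytosine, the JmjC histone demethylases, the hydroxylases of HIF and the prolyl hydroxylases that mature collagen.

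With 1 array and no dye swap, the comparison has no replicate and no p-value. A gene was called by size alone, at least 2-fold apart, and a dye effect of a single gene cannot be told apart from treatment. The log2 ratio of pAsc over untreated had an SD of 0.068 between repeat spots of a probe (176 probes), of 0.18 between different probes of a gene (5841 genes) and of 0.27 over all 16288 measured genes, whose median was 0.005. These spreads hold no variation between cultures. Of the 16288 genes, 37 were higher by 2-fold or more (0.227%) and 61 lower by that much (0.375%) in pAsc-treated cells. With the log ratio that Agilent's software computed, 116 genes were higher (0.712%) and 165 lower (1.01%), and these included 31 of the 37 and 60 of the 61. Intensities below are normalized to a common scale across channels and arrays, on which genes above background in neither channel have a median of 68.4 because an offset of 50 was added, so ratios of dim genes are pulled towards 0. Just inside the threshold lay Tnc at a log2 ratio of 1.005 and Lair1 at -1.006, and just outside it lay Tmem178 at 0.997 and Tfrc at -0.996. Of these, Lair1, Tmem178 and Tfrc were named after their values were seen. Where each array was only centred on the median of all probes, in place of loess, the median of all measured genes moved to 0.54, and 1560 genes were higher and 12 lower, so that 99.2% of calls were on the higher side, against 37.8%. Directions are therefore given after loess, relative to all measured genes. Of the 39 list medians below, 24 turned their sign with that centring and 10 with centring on the median of measured genes.

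The higher genes included both chains of the CD8 coreceptor, Zap70 and Slamf6, and the lower ones included Lyl1 and Cd34 of progenitors and Cpa3 of mast cells. The 60-base probes that carry these values are shown here as given in the deposited files, 5′ to 3′ and in lower case, so that each value can be traced to the piece of transcript it reads. Positions are on mm9, and the strand follows the order of the coordinates in the files, which matched the RefSeq strand of the gene for 99.1% of 26204 probes.
Cd8b1 (chr6:71287068-71287126, plus strand): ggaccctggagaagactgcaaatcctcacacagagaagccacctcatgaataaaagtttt
Cd8a probe 1 (chr6:71327330-71327389, plus strand): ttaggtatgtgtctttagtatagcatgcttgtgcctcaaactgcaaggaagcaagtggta
Cd8a probe 2 (chr6:71328911-71328970, plus strand): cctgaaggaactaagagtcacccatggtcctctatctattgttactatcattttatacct
Cd8a probe 3 (chr6:71323885-71323944, plus strand): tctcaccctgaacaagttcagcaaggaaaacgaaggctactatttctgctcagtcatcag
Zap70 (chr1:36838210-36838269, plus strand): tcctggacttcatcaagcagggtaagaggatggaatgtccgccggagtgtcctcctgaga
Slamf6 probe 1 (chr1:173866817-173868145, plus strand): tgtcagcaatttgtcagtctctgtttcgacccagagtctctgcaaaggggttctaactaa
Slamf6 probe 2 (chr1:173873620-173873679, plus strand): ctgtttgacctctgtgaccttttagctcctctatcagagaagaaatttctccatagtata
Lyl1 (chr8:87228531-87228590, plus strand): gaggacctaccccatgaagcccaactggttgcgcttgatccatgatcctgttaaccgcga
Cd34 (chr1:196787392-196787451, plus strand): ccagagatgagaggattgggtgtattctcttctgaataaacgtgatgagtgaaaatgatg
Cpa3 (chr3:20115674-20115733, minus strand): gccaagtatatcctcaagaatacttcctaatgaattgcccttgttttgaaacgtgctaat
The Cd8b1 and Cd8a probes lie on chromosome 6, and the gap between Cd8b1 and the brightest Cd8a probe is 40262 bases.

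Cd8b1, the beta chain of CD8, had an intensity of 7401 in pAsc-treated and 2405 in untreated T cells, a log2 ratio of 1.62. Cd8a, the alpha chain, is read by 3 probes, which gave 1361, 847 and 370 in treated cells against 550, 293 and 147 in untreated cells. All 3 Cd8a probes lay between 1.31 and 1.53 on the log2 scale, with an SD of 0.071 over the 10 spots of the probe nearest the 3′ end. CD8 transcripts were thus higher in treated cells at each of the 4 places where they were read, by more than the SD between probes of a gene. On the 24 h array Cd8b1 had 206 in treated and 250 in untreated cells (-0.27), and Cd8a, with 108 and 98.9 in the same order, was too near an empty spot for its ratio of 0.12 to be informative. Cd4, the other coreceptor, had 86.2 in treated and 90.3 in untreated cells, near the level of an empty spot, and its log2 ratio of -0.07 does not show whether it changed.

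Of the 17 measured coreceptor genes and lineage regulators, Cd8b1 and Cd8a were past 2-fold upwards and Myb downwards, and their median was -0.09. Over all measured genes 0.227% were past 2-fold upwards and 0.375% downwards. Myb, a transcription factor of immature blood cells and thymocytes, had 8145 in treated and 19918 in untreated cells, and its 4 probes ranged from -1.29 to -0.44. Of the regulators that steer CD4 and CD8 choice, Zbtb7b (ThPOK) had a log2 ratio of 0.24, Runx3 of -0.32, Tox of -0.13 and Gata3 of 0.00. None of those 4 reached 2-fold in either direction, and Zbtb7b was at least 2-fold brighter in untreated stroma than in untreated T cells.

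Among 38 kinases and adaptors of the T cell receptor, Zap70 stood alone past 2-fold. Zap70, the kinase that docks on phosphorylated CD3 chains, had 3723 in treated and 1520 in untreated cells, a log2 ratio of 1.29 (0.35 at 24 h). The list had a median of -0.09 and 24 members below 0. Lck, the kinase that binds CD8 and CD4, had 22977 in treated and 27770 in untreated cells, and Lat, the adaptor that Zap70 phosphorylates, had 14134 and 18187 in the same order. Their log2 ratios of -0.27 and -0.36 lay on the other side of 0 from Zap70 after loess, but were 0.15 and 0.00 when the array was centred on measured genes, where Zap70 was at 1.45. The lowest of the list was Cbl, a ubiquitin ligase that limits signalling, at -0.75.

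The 6 measured CD3 chains and pre-receptor genes had a median of -0.19 with 0 past 2-fold. Cd3d had 23194 in treated and 32455 in untreated cells (log2 ratio -0.48), Cd247, the zeta chain, had 2850 and 3859 in the same order (-0.44), and Cd3e was at -0.04. Ptcra, the pre-T-cell receptor alpha chain of the first checkpoint, was at 0.03. Tcra, the rearranged alpha chain, was the highest of the list at 0.60, but was dim, with 211 in treated and 139 in untreated cells. The CD3 chains thus lay below 0 or close to it after loess, and the median of the list was 0.06 with centring on measured genes.

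Receptor gene recombination gave 0 of 21 measured members past 2-fold and a median of -0.02, beside 0.005 for all genes. Rag1, a subunit of the recombinase, had 4087 in treated and 4034 in untreated cells, and Dntt, which adds untemplated bases at the joints, had 81714 and 77203 in the same order. Rag2 was near an empty spot in both channels, at 88.2 and 91.0. By their brightest probes Rag1 and Dntt were thus close to equal in the 2 channels. The 3 measured Dntt probes ran between -0.38 and 0.08, with a median of -0.38. The 3 of Rag1 ran between -0.48 and 0.02.

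Among 24 Notch receptors and targets only Il2ra was past 2-fold, on the lower side, and the median was 0.03. Il2ra is the CD25 chain that marks early thymocytes and is also on the list of common gamma chain receptors, and it had 3184 in treated and 6800 in untreated cells. Its 4 probes lay between -1.09 and -0.88, so the lower value did not rest on 1 probe. Notch1 was at -0.33, Notch3 at 0.07, Hes1 at 0.25 and Dtx1 at -0.22. Of the other gamma chain receptors, Il7r, the receptor of the IL7 in the medium, was at -0.32, and Cish, a feedback inhibitor of cytokine signalling, was the highest at 0.81, while the 19 measured members had a median of -0.05.

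T lineage commitment factors (23 measured, median -0.09) had Myb as their 1 member past 2-fold. Bcl11b, the factor that closes off other fates, had 5749 in treated and 8730 in untreated cells, a log2 ratio of -0.60. Tcf7 had 8535 and 9238 in the same order (-0.11), and Gata3 had 16055 and 16097. Bcl11b was thus the lowest of these 3 and the others were close to equal in the 2 channels.

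Slamf6, a receptor of the SLAM family that modulates selection and helper function, was the 1 of 10 measured SLAM genes at least 2-fold higher. Its brighter probe had 953 in treated and 367 in untreated cells, and its other probe 299 and 174 in the same order, for log2 ratios of 1.38 and 0.78. The median of the SLAM list was -0.13, and the lowest member was Cd244a at -0.32. Fxyd4, an ion transport regulator, had 2330 in treated and 924 in untreated cells (1.33). Acsbg1, an acyl-CoA synthetase, had 1711 and 688 in the same order (1.31). These genes, like CD8 and Zap70, were at least 2-fold dimmer in untreated stroma than in untreated T cells, with stromal intensities of 66.4 for Slamf6, 76.2 for Fxyd4 and 109 for Acsbg1.

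**Figure D1:**
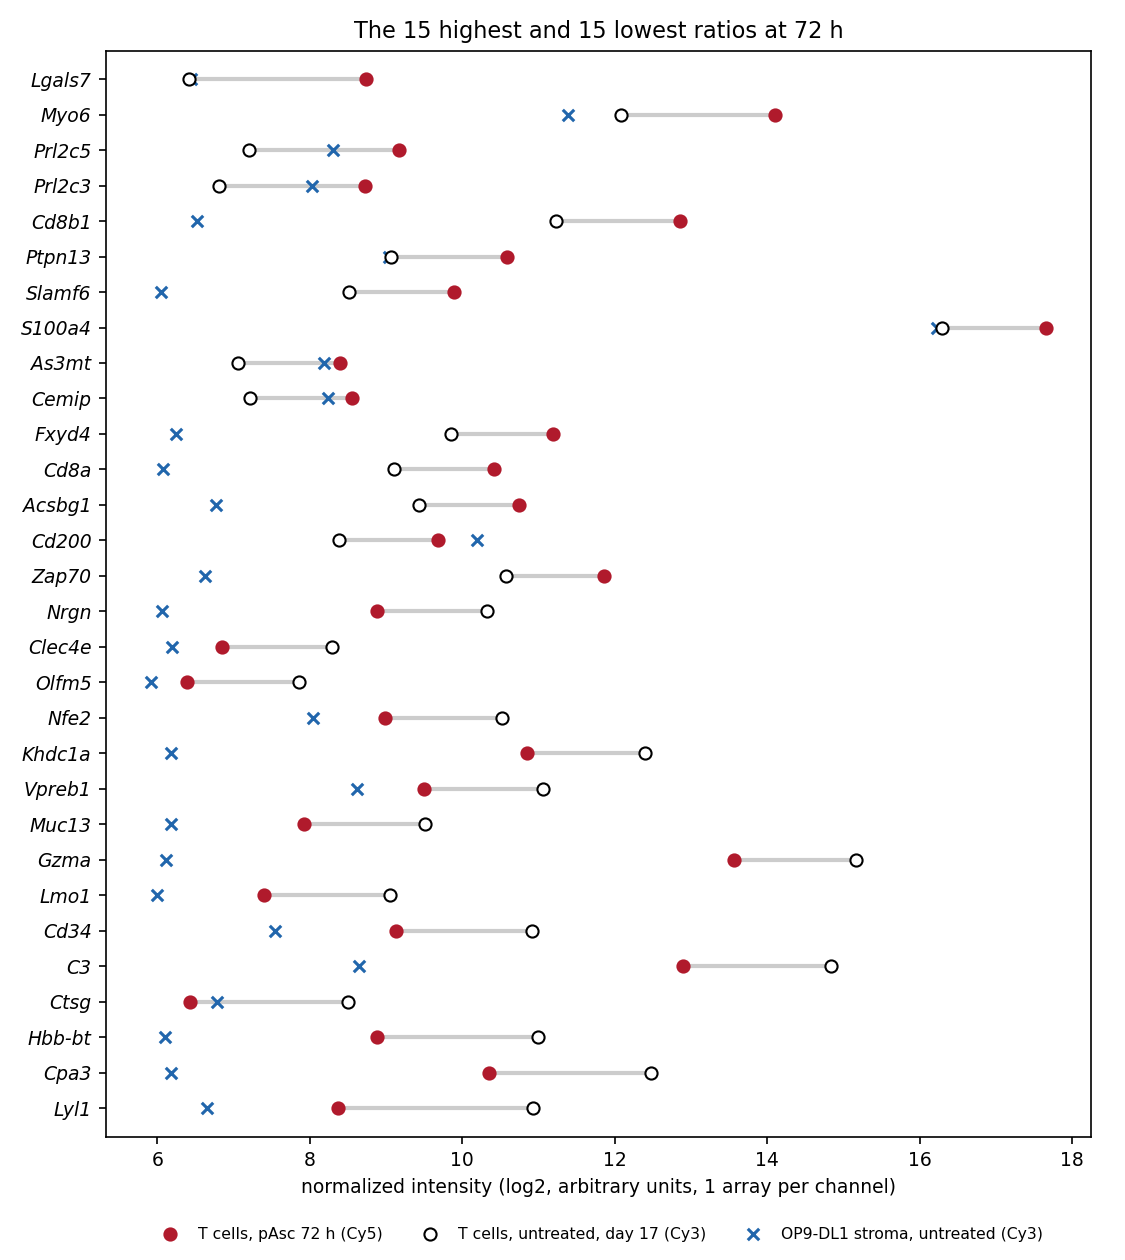
Normalized intensity (log2, x axis) of the 15 genes with the highest and the 15 with the lowest log2 ratio at 72 h, clone names left out. Red points are pAsc-treated T cells, open points untreated T cells of day 17 and blue crosses untreated OP9-DL1 stroma, each from 1 array. The 2 points of Cd8b1 stand at intensities of 7401 and 2405, and its stromal cross is at 91.8.

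Surface markers of selection and maturation had few members past 2-fold. Their 47 measured members had a median of -0.10, with 0 past 2-fold upwards and 2 downwards (0.227% and 0.375% over all measured genes). Itga4, the alpha 4 integrin, was among those 2, with 1091 in treated and 2419 in untreated cells. Itga4 has 5 measured probes between -1.15 and -0.10. Ccr9, a chemokine receptor of thymocytes, was just short of the threshold, with 1410 in treated and 2705 in untreated cells (-0.94). Cd69, an early activation marker, was at -0.48, and Cd5, whose level follows receptor signal strength, at -0.40. Ccr7 was at -0.04, S1pr1 at 0.33 and Klf2 at 0.26, the last 3 being genes of thymic migration and exit.

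Immediate-early genes, which respond within minutes to receptor signals, had a median of 0.09 over 28 measured members, 1 of them past 2-fold upwards. It was Arc, a cytoskeletal protein best known in neurons, with 422 in treated and 201 in untreated cells. Arc was at least 2-fold brighter in untreated stroma, at 406, than in untreated T cells. Nr4a1 (Nur77), a reporter of T cell receptor signalling, had 22108 in treated and 11791 in untreated T cells, a log2 ratio of 0.91. Egr1 had 30817 and 22500 (0.45), and Fosb was the lowest at -0.66. At 24 h the same list had a median of 0.45.

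The families of apoptosis regulators, effector cytokines, interferon-stimulated genes and class I presentation had at most 1 member past 2-fold in either direction after loess. Of 20 measured BCL2 family genes, Bcl2l14 was at least 2-fold lower, with 305 in treated and 652 in untreated cells, while Bcl2 was at -0.08 and Bcl2l1 (Bcl-xL) at 0.23. Of 18 effector cytokines the chemokine Ccl4 was at least 2-fold lower, with 135 in treated and 276 in untreated cells, but with the Agilent log ratio 3 of the 18 were past 2-fold upwards and 3 downwards. Of 44 interferon-stimulated genes Ifi27l2a was at least 2-fold higher, with 473 in treated and 220 in untreated cells, and the list had a median of 0.01. Ifi27l2a was brighter in untreated stroma, at 1677, and its log2 ratio on the stromal array itself was 1.89. Class I presentation genes had a median of -0.19, with 15 of 18 below 0 and 0 past 2-fold, but a median of 0.18 with centring on measured genes, and Psmb9, a subunit of the immunoproteasome, was lowest at -0.64.

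A blood progenitor factor had the lowest log2 ratio of the array with the offset of 50, while the lists of progenitor genes as a whole stood near 0. Lyl1, a basic helix-loop-helix factor of stem and progenitor cells, had 332 in pAsc-treated and 1946 in untreated cells, a log2 ratio of -2.55 (-2.78 with the Agilent log ratio, where Ctsg was lower). The 19 measured progenitor factors had a median of -0.01, with 4 past 2-fold downwards (0.375% over all measured genes) and 0 upwards. The other 3 were Lmo1, a LIM-domain partner of such factors, with 168 in treated and 531 in untreated cells, Nfe2, a bZIP factor of the platelet and red cell lineages, with 507 and 1473 in the same order, and Erg, an ETS factor of stem cells, with 573 and 1383. Gata2, which was at least 2-fold brighter in untreated stroma than in untreated T cells, was the highest of the list at 0.65. The lower values were thus those of 4 factors and not of the list.

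Cd34, a sialomucin on the surface of progenitors, had 561 in treated and 1938 in untreated cells (-1.79), where the 24 h array had it at 0.77. Cd93, another progenitor marker, had 2382 and 5005 at 72 h, in the same order, and its 2 probes were at -1.07 and -0.34. They were the only calls among 18 measured progenitor surface markers, whose median was -0.11, where 0.375% of all measured genes were called lower. Kit, the receptor of stem cell factor, was on the other side of 0, with 5364 in treated and 3763 in untreated cells, a log2 ratio of 0.51 with an SD of 0.060 over 10 spots. Cd44 was at 0.13. Progenitor markers therefore did not share a direction.

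Granule genes of mast and myeloid cells were low in treated cells in 3 cases. Cpa3, a carboxypeptidase of mast cells and their progenitors, had 1302 in treated and 5693 in untreated cells (-2.13). It was the 1 of 7 measured mast cell and basophil genes past 2-fold (median -0.01). Of the 7, Hdc, Tph1 and Prss34 lay between 85.6 and 122 in both channels. That is near an empty spot, where the offset holds ratios close to 0. Ctsg, cathepsin G, had 86.3 in treated cells, near an empty spot, and 361 in untreated cells (-2.07, and -3.34 with the Agilent log ratio). Lyz2, lysozyme, had 176 in treated and 424 in untreated cells (-1.27), and at 970 in untreated stroma it was brighter there than in T cells. These last 2 were 2 of 19 measured myeloid genes, with a median of -0.01. Prtn3, Mpo, Lyz1, Cd68 and Fcgr3 of that list lay between 85.3 and 120 in both channels, likewise near an empty spot. Of the 10 myeloid markers 6 were above background in both T cell channels, while Itgam, Elane, S100a8 and Cybb were not. These 6 had a summed intensity of 2182 in treated and 2952 in untreated cells. Most of both sums was Tyrobp, at 1596 and 1872. Of the 6 mast cell markers only Cpa3 and Hdc were above background in both T cell channels, with a sum of 1413 in treated and 5815 in untreated cells, nearly all of it Cpa3, and Ms4a2 and Tpsb2 were above it in neither. The part of fewer or more such cells in the ratios was not tested.

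Among 24 measured B cell genes the median was -0.09, and 4 were past 2-fold downwards (7 with the Agilent log ratio) and 0 upwards. Over all measured genes 0.375% were lower by that much (1.01% with the Agilent log ratio). Vpreb1 and Igll1 encode the surrogate light chain of pre-B cells and their probes lie 7455 bases apart on chromosome 16. Vpreb1 had 721 in treated and 2138 in untreated cells (-1.57), and Igll1 had 112 and 230 in the same order (-1.04). Blk, a kinase of B and gamma-delta T cells, had 176 and 380 (-1.11), and Blnk, a B cell adaptor, had 480 and 976 (-1.02). Vpreb1 was also seen in untreated stroma at 394. Of the 9 B cell markers 7 were above background in both T cell channels. These 7 had a summed intensity of 3877 in treated and 5757 in untreated cells, against 2604 in stroma. Most of the stromal sum was Ebf1, at 1728 there against 564 in untreated T cells, while Cd79b had 62.7 against 1619. Cd79a and Pax5, which define B cells, were not above background. The part of B lineage cells in these values was not tested.

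Cytotoxic, NK and gamma-delta genes had the lowest median of the 39 lists, -0.33 after loess (-0.45 with the Agilent log ratio, and 0.04 with centring on all probes, where all genes had 0.54 and B cell genes were lowest at -0.14), with 19 of 29 measured members below 0, 5 past 2-fold downwards and 0 upwards. Over all measured genes 0.375% were past 2-fold downwards. Gzma, the tryptase granzyme A, was the brightest of the 5 in the list, with 12061 in treated and 36811 in untreated cells (-1.61). Sox13, a factor of gamma-delta T cells, had 175 and 443 in the same order, Klrb1c, the NK1.1 receptor, had 208 and 424, and Gzmc, granzyme C, had 399 and 801. Blk also belongs to this list. Gzmb, granzyme B, went the other way, at 0.66, the highest of the list. The list's median at 24 h was -0.28. Of the 8 NK and cytotoxic markers 7 were above background in both T cell channels, and these 7 summed to 59671 in treated and 76766 in untreated cells, while Eomes was not. The part of such cells in these values was not tested.

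Megakaryocyte and erythroid genes had a median of -0.11 over 16 measured members, with 3 past 2-fold downwards (0.375% over all genes) and 0 upwards. They were the beta-globin gene Hbb-bt, with 473 in treated and 2044 in untreated cells, Nfe2, and Muc13, a mucin of progenitors and epithelia, with 243 and 728 in the same order. The 4 Hbb-bt probes ranged from -2.11 to -0.64, and near-identical beta-globin genes may share their signal, so the member of the family is uncertain. The alpha-globin gene Hba-a1 was the highest of the list at 0.38. Dendritic cell genes (13 measured, median -0.19) had Ly6d, a surface antigen of lymphoid progenitors, as their 1 member past 2-fold, with 7658 in treated and 15418 in untreated cells (-1.01). Of the 6 erythroid and megakaryocyte markers 4 were above background in both T cell channels, Klf1 and Alas2 not, and these 4 lay between 88.8 and 150, so near an empty spot that the offset holds their ratios close to 0. Of the 5 dendritic cell markers 3 were above background, Siglech and Clec9a not, with a sum of 754 in treated and 737 in untreated cells, most of it Irf8.

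C3, the central complement component, had 7634 in treated and 29320 in untreated cells, a log2 ratio of -1.94 with an SD of 0.048 over 9 spots. Its other, dim probe, nearer the 5′ end, was near an empty spot in treated cells and had 102 in untreated cells (-0.44, and -1.61 with the Agilent log ratio). It was the 1 of 17 measured complement genes past 2-fold, in a list with a median of -0.03. Khdc1a, a KH-domain gene best known from eggs and early embryos, had 1841 and 5380 (-1.55), and Nrgn, a calmodulin-binding protein best known in neurons, had 470 and 1277 (-1.44). Clec4e, a C-type lectin receptor of phagocytes, had 115 and 315, and Olfm5 had 83.7 and 233. Clec4e lies 8149 bases from Clec4d, a related lectin that was named after its value was seen and was at -1.33.

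**Figure D2:**
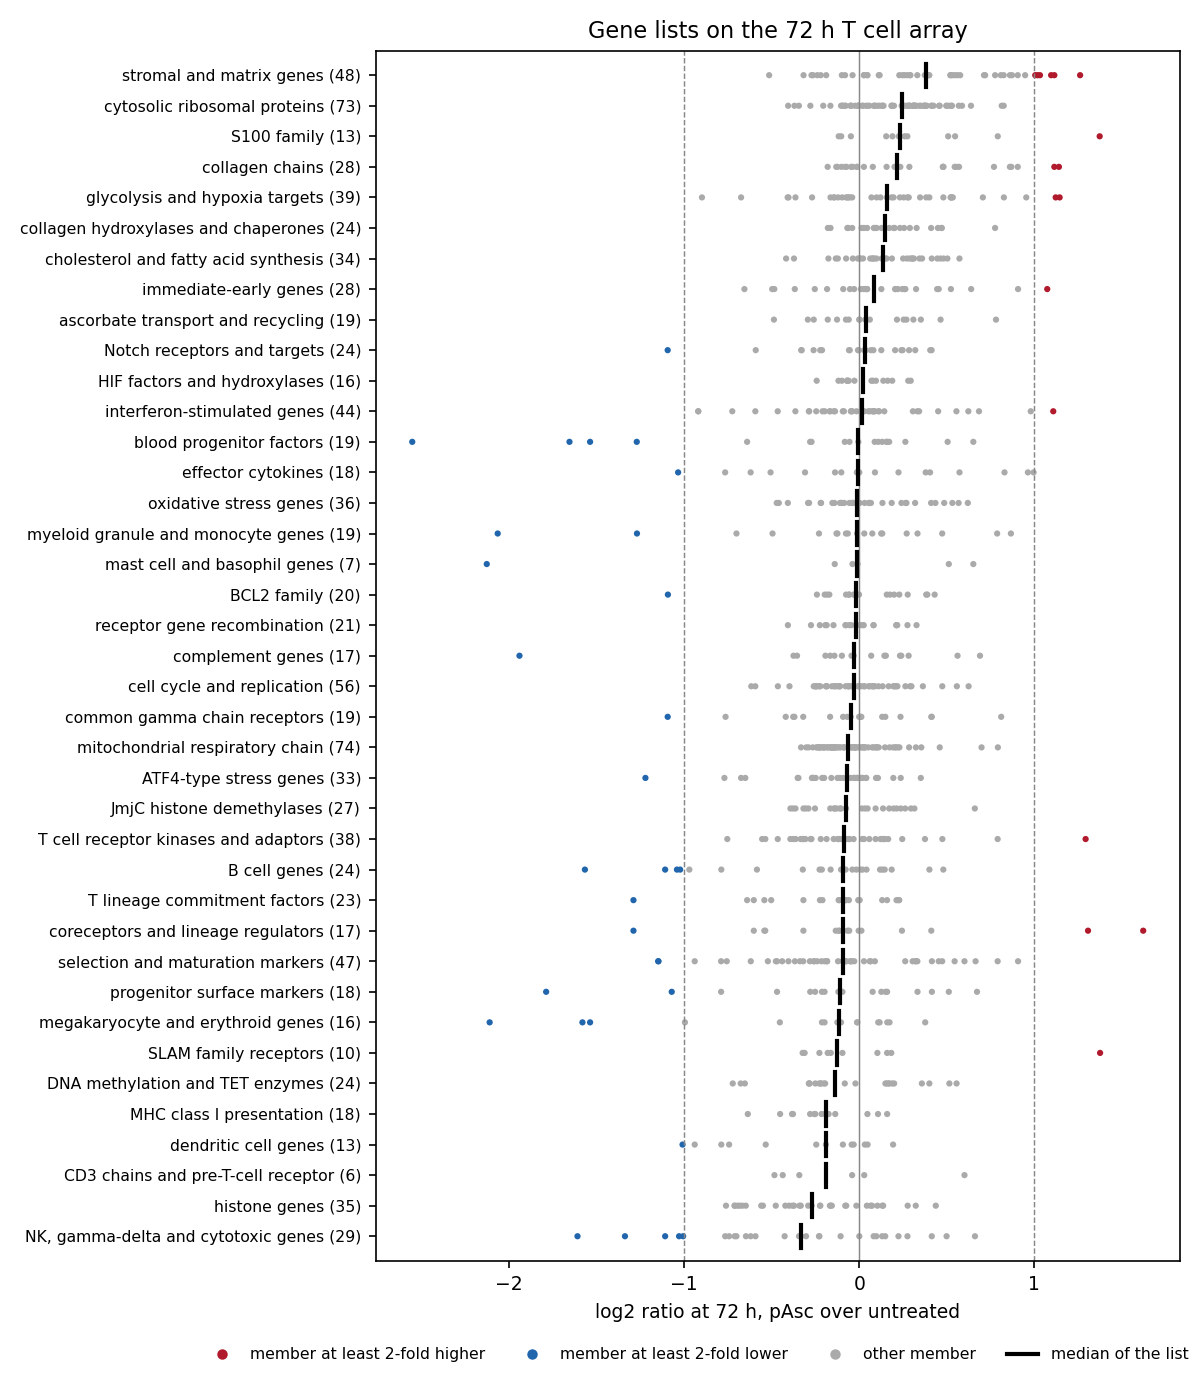
Log2 ratio at 72 h (pAsc over untreated, x axis) of every measured member of the 39 gene lists, with the number measured in parentheses. Each point is a gene on 1 array, red points are past 2-fold upwards and blue points downwards, and black bars are list medians, which run between -0.33 for cytotoxic genes and 0.38 for stromal genes.

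Stromal and connective tissue genes had the highest median of the 39 lists after loess. With centring on measured genes they had 0.67 and the cytosolic ribosomal proteins, at 0.80, stood above them. After loess the median was 0.38 over 48 measured members, 38 of which were above 0. Of the 48, 6 were past 2-fold upwards, against 0.227% of all measured genes, and 0 downwards. With the Agilent log ratio the median was 0.32, with 5 past 2-fold upwards and 1 downwards, and Col1a2, Mgp and Ccn2 of the 6 fell short at 0.83, 0.95 and 0.96. Col1a2, a chain of type I collagen, had 100148 in treated and 46264 in untreated cells. Fbn1, fibrillin of elastic fibres, had 11665 and 5457 in the same order, and Mgp, a matrix inhibitor of calcification, had 39454 and 19475. The other measured Col1a2 probe, dim at 131 and 117, was at 0.17, and the other measured Fbn1 probe was at 0.56. Ccn2, a growth factor target of TGF-beta, had 30164 in treated and 14750 in untreated cells, Cnn1, a smooth muscle calponin, 651 and 272, and Tnc, tenascin C, 732 and 365. Not every member moved with them. Sparc, an abundant matrix protein, was at 0.04, Vcam1 at -0.19 and Bgn, biglycan, was lowest at -0.52. In bulk RNA a different number of cells of a type and a different amount of RNA per cell cannot be told apart.

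Over 28 measured collagen chains the median was 0.22, with 2 past 2-fold upwards (0.227% over all genes). It was -0.01 over the 19 chains that did not pass the 2-fold mark for stroma. The 2 chains past it were Col1a2 and Col11a1, a chain of cartilage collagen, with 537 in treated and 243 in untreated cells. Col1a1 had 79794 and 43951 in the same order (0.86, SD 0.051 over 9 spots). The enzymes and chaperones that mature collagen had 0 of 24 past 2-fold and a median of 0.15, with P4ha1, a prolyl hydroxylase subunit, at -0.16 and Lox, which crosslinks collagen, highest at 0.78.

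The untreated channel of the stromal array shows how bright these genes are in OP9-DL1 cells. In OP9-DL1 cells alone, given pAsc for 24 h, the called stromal genes Mgp, Col1a2 and Cnn1 had log2 ratios of 1.65, 1.12 and 0.56. The others, Ccn2, Fbn1 and Tnc, had 0.45, 0.26 and -0.08. Of the 14 stromal markers 13 were above background in both T cell channels and the other, Serpinh1, has no value on the 72 h array, and 12 of those 13 lay above 0 at 72 h, the median being 0.71. Their summed intensity was 448194 in treated and 267691 in untreated T cells, against 410353 in untreated stroma for the same 13, and the median marker reached 99.0% of its level in untreated stroma in treated cells and 62.7% in untreated cells of day 17. In untreated cells of day 14, where Serpinh1 also had a value, the median over all 14 markers was 22.8%. The T cell markers were all 13 above background, with a summed intensity of 162377 in treated and 189242 in untreated cells, against 1366 in stroma, and 10 of 13 were below 0 with a median of -0.27, or 0.10 with centring on measured genes, where the stromal markers had 1.06. RNA of stromal markers was thus higher in the treated channel beside that of T cell markers under either scaling. The part of stromal RNA in the ratios of other genes was not tested.

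Set against untreated T cells of day 17, untreated stroma was brighter by 2-fold or more for 2276 measured genes (14.0%) and dimmer by that much for 2159 (13.3%). Among the 37 higher genes 15 were brighter in stroma (40.5%) and 7 dimmer (18.9%), and among the 61 lower genes 2 were brighter (3.28%) and 57 dimmer (93.4%). These shares depended on the processing, since 24.3% of the higher genes were brighter in stroma with median scaling of Cy3, and 55.8% of the lower genes were dimmer with calls from the Agilent log ratio. With the Agilent calls the dimmer share over all genes stayed at 13.3%. With median scaling the share over all genes is not given here. The untreated T cell channel stands in both the ratio and the brightness mark, so a low untreated spot raises both values and a high one lowers both. Lyz2 and Trib3, a pseudokinase of the stress response, were the 2 lower genes that were brighter in stroma. Trib3 had 252 in treated and 588 in untreated T cells, where its level in untreated stroma was 2201, and on the stromal array its own log2 ratio was -2.15.

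**Figure D3:**
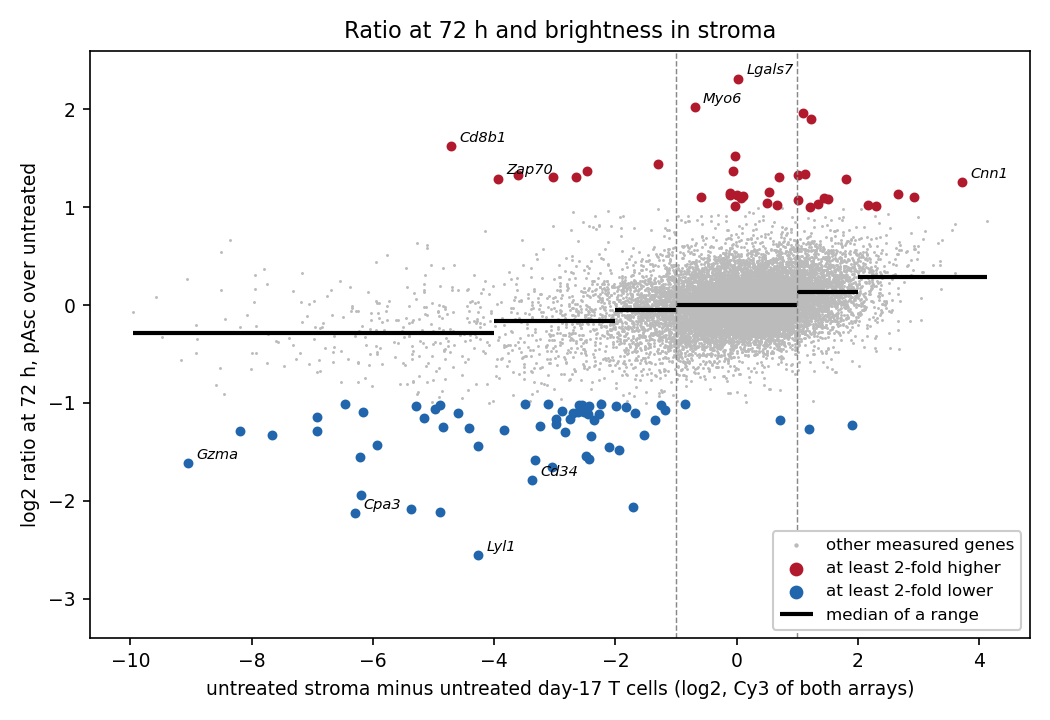
Log2 ratio at 72 h (y axis) against the difference between untreated stroma and untreated day-17 T cells (log2, x axis) for 16288 genes. Black bars are medians of ranges of the x axis, dashed lines mark 2-fold, and the 2 axes share the untreated T cell channel. The bars run between -0.28 for 291 genes more than 16-fold dimmer in stroma and 0.29 for 269 genes more than 4-fold brighter.

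The median ratio rose from each range of brightness in stroma to the next. Both values hold the untreated T cell channel, so error in that channel alone can give such a rise. How much of the rise it gave was not tested. Genes with a log2 difference under -4 had a median of -0.28, with 22 of 291 past 2-fold downwards, those between -4 and -2 had -0.16, and those between -2 and -1 had -0.05. The 11851 genes between -1 and 1 had a median of 0.00. Above that the medians were 0.13 between 1 and 2 and 0.29 above 2. CD8, Zap70, Slamf6, Fxyd4 and Acsbg1 had their ratios above 1 in ranges whose medians were below 0. With the Agilent log ratio the medians were -0.28 in the lowest and 0.34 in the highest range.

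Transcripts tied to sex chromosomes, chosen after their values were seen, differed between the channels as well. Xist, the long RNA of the inactive X, had 8008 in treated and 11207 in untreated cells (-0.48) and was not above background in untreated stroma. The Y-linked genes Eif2s3y, Ddx3y and Kdm5d had 1918, 695 and 264 in treated cells, 1283, 511 and 167 in untreated cells, and 740, 314 and 287 in untreated stroma. Their log2 ratios at 72 h were 0.58, 0.44 and 0.66, so that Xist and these 3 lay on different sides of 0 after loess, although the 2 Ddx3y probes were at 0.04 and 0.44 and the 4 Xist probes ran between -0.48 and -0.11. What share of this reflects stromal RNA was not tested.

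Of the genes with the highest ratios, Lgals7 and Myo6 belong to no list. Myo6, the myosin that walks towards the minus end of actin filaments, is read by 3 probes, printed here because they disagree.
Myo6 probe 1 (chr9:80157072-80157131, plus strand): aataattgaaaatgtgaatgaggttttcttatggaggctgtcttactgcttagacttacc
Myo6 probe 2 (chr9:80156107-80156163, plus strand): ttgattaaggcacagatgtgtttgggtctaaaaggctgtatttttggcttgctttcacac
Myo6 probe 3 (chr9:80129566-80131319, plus strand): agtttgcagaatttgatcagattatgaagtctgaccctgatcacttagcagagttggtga
The 2 probes nearest the 3′ end had 17591 and 1064 in treated cells against 4321 and 296 in untreated cells, for log2 ratios of 2.03 and 1.84. The third, furthest from the 3′ end, had 92.4 and 104 (-0.16), near an empty spot. The labelling is primed from the poly(A) tail. Lgals7, a galectin of stratified epithelia, had 425 in treated and 85.4 in untreated cells, the second being near an empty spot, and its log2 ratio of 2.32, pulled towards 0 by the offset, was 4.33 with the Agilent log ratio.

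Other genes of the top 15 belonged to varied families. Prl2c5 and Prl2c3, prolactin-family genes known from placenta, had 578 and 422 in treated cells against 148 and 113 in untreated cells. They are near-identical copies whose probes may share signal, so the member is uncertain. Ptpn13, a tyrosine phosphatase, had 1542 and 536 (1.52), with its other measured probe at -0.04 and near an empty spot. As3mt, an arsenic methyltransferase, Cemip, a hyaluronan-degrading protein, and Cd200, a ligand that restrains myeloid cells, had log2 ratios of 1.34, 1.33 and 1.29. The 3 Cemip probes ranged from -0.01 to 1.35. Prl2c5, Prl2c3, As3mt, Cemip and Cd200 were at least 2-fold brighter in untreated stroma than in untreated T cells of day 17. At day 14, however, untreated T cells had 950 for Prl2c5 and 687 for Prl2c3, against 317 and 262 in untreated stroma. As3mt, Cemip and Cd200 were dimmer in those cells than in stroma. As3mt had a log2 ratio of 1.84 on the stromal array itself. S100a4, a calcium-binding protein of motile cells, was the brightest gene past 2-fold, with 207214 in treated and 79993 in untreated cells (1.37, and 1.07 with the Agilent log ratio). It was the 1 of 13 measured S100 proteins and partners past 2-fold (median 0.23), and its log2 ratio on the stromal array itself was 1.36.

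**Figure D4:**
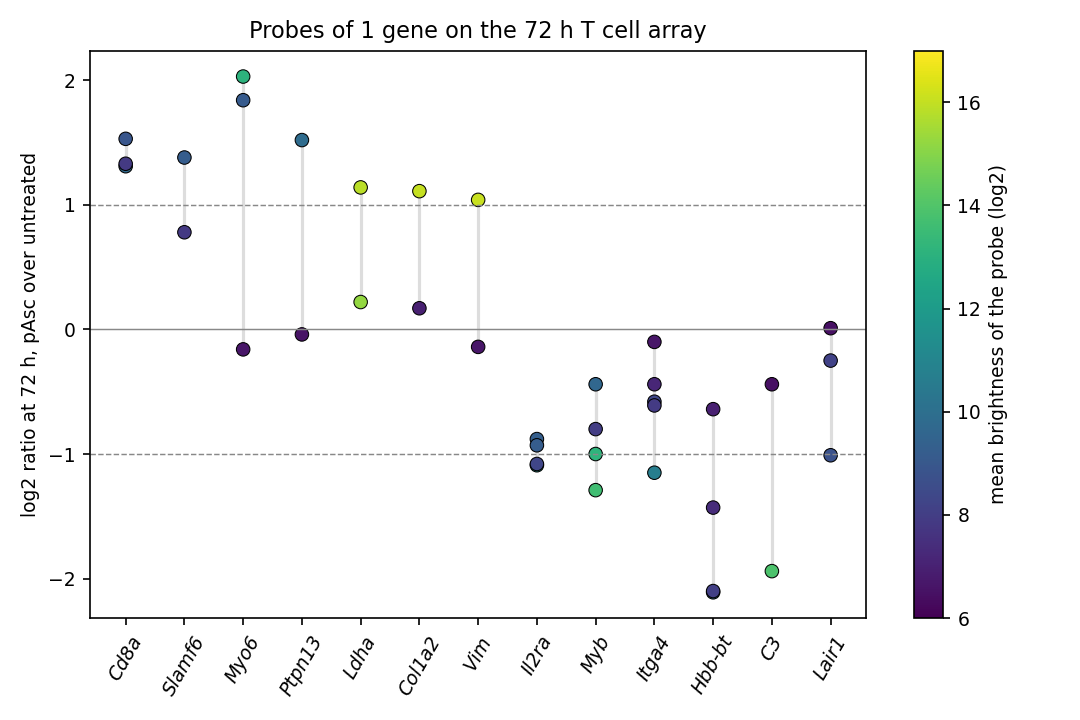
Log2 ratio at 72 h (y axis) of each measured probe of 13 called genes that have several probes, coloured by the mean log2 brightness of the probe. Grey lines join probes of a gene and dashed lines mark 2-fold. The probes of Cd8a and Il2ra lie close together, and those of Myo6, Ptpn13 and Vim that lie near 0 are dim, as is the C3 probe at -0.44.

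Over all called genes with several probes, the other probes were split by brightness. Of those at a mean log2 brightness of 8 or more, 7 of 7 for higher genes and 15 of 15 for lower genes had the direction of the brightest probe, and 3 and 6 of them passed 2-fold. Of those under 8, 6 of 10 and 10 of 11 had that direction. Il2ra and Cd8a thus had all their measured probes close together, while the calls of Ptpn13 and Myo6 rest on the probes nearest the 3′ end.

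Glycolysis and hypoxia targets had a median of 0.16 over 39 measured members, with 2 past 2-fold upwards (0.227% over all genes) and 0 downwards. Ldha, lactate dehydrogenase, had 89013 in treated and 40264 in untreated cells (1.14) and Aldoa, aldolase, had 140008 and 64329 in the same order (1.12). With the Agilent log ratio they were at 0.86 and 0.81, and the second Ldha probe was at 0.22. Ankrd37 was the lowest at -0.90. The factors and hydroxylases of the HIF pathway had 0 of 16 past 2-fold and a median of 0.02, between Hif1an at -0.24 and Epas1 at 0.29.

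**Figure D5:**
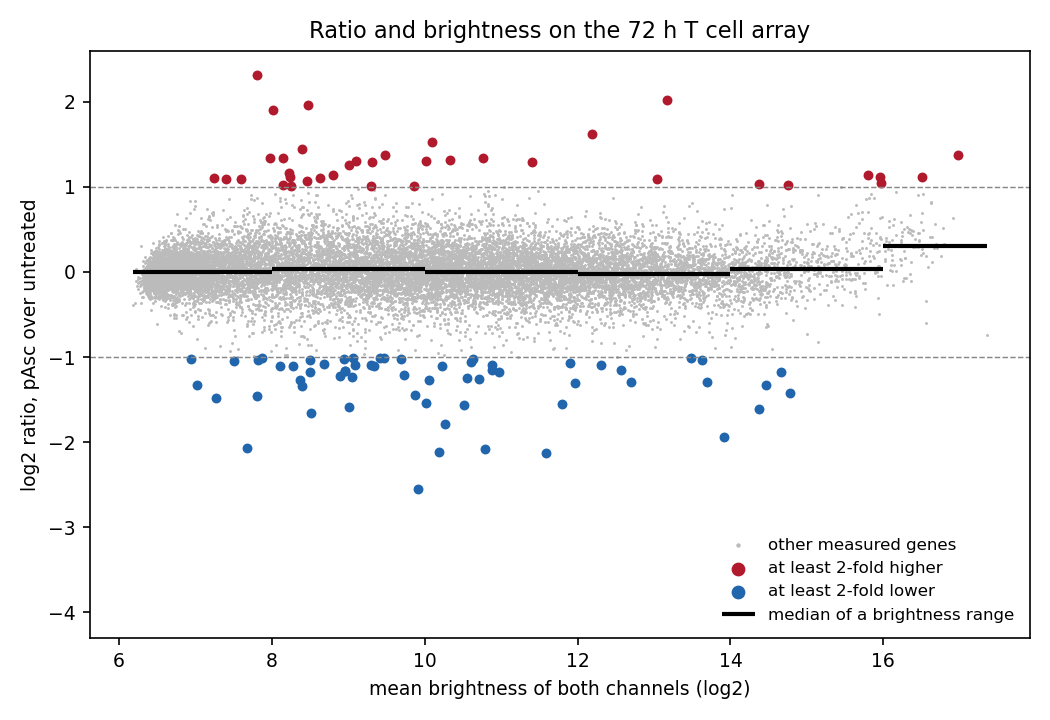
Log2 ratio at 72 h (y axis) against the mean log2 brightness of both channels (x axis) for 16288 genes. Black bars are medians of brightness ranges and dashed lines mark 2-fold. The median is 0.31 for the 94 genes above 16, where S100a4 lies, and between -0.02 and 0.03 elsewhere.

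That brightness plot bears on the values of very bright genes. Among the 94 genes above a mean log2 brightness of 16 the median was 0.31 after the normalization used here and 0.08 with the Agilent log ratio. Before normalization the medians of the brightness ranges ran between 0.68 and 2.13. Cytosolic ribosomal proteins, which are among the brightest transcripts, had a median of 0.24 over 73 measured genes with 0 past 2-fold, and 0.01 with the Agilent log ratio.

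The enzymes that use ascorbate, and the genes that import and recycle it, were not past 2-fold in any listed case that was measured. Over all measured genes only 0.227% were higher and 0.375% lower by that much, so lists of this size would hold few calls or none. Ascorbate transport and recycling had 19 measured members and a median of 0.04. Slc23a2, a sodium-coupled ascorbate transporter, had 406 in treated and 319 in untreated cells (0.35), and Slc23a1 was near an empty spot in both. Genes of DNA methylation and its removal (24 measured) had a median of -0.14. Tet1 had 123 and 130, Tet2 141 and 123, and Tet3 1120 and 995, treated first, for log2 ratios of -0.08, 0.20 and 0.17. The lowest of that list was Cxxc5 at -0.72. JmjC demethylases (27 measured) had a median of -0.08, with Kdm6b, an eraser of H3K27 methylation, at -0.32.

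Stress and lipid programmes were also close to the median of all genes. Oxidative stress genes (36 measured) had a median of -0.01 with 0 past 2-fold, between Keap1 at -0.47 and Gsr, glutathione reductase, at 0.62. ATF4-type stress genes (33 measured) had a median of -0.07, with Trib3 alone past 2-fold. Genes that make cholesterol and fatty acids were on the upper side in 26 of 34 measured cases, with a median of 0.14 and 0 past 2-fold.

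Growth and division genes showed no call, where over all measured genes 0.227% were called higher and 0.375% lower. Cell cycle and replication had 56 measured members and a median of -0.03, and the proliferation marker Mki67 had 18059 in treated and 18862 in untreated cells. Histone genes had a median of -0.27 after loess (-0.35 with the Agilent log ratio, and 0.40 with centring on all probes, where all genes had 0.54) with 26 of 35 measured members below 0 and 0 past 2-fold, and H4c6 was lowest at -0.76. The labelling was primed from poly(A) tails, which most replication-dependent histone transcripts lack. Mitochondrial respiratory chain genes had a median of -0.06 over 74 measured members, between Cox7a2 at -0.33 and Atp5g3 at 0.79.

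Genes above background in only 1 channel have a bound in place of a ratio, and these bounds are open to dye bias. There were 979 such genes in the treated and 167 in the untreated channel. Of those with a bound above 1, 1 of 416 passed 2-fold upwards and 2 of 88 downwards. Sgip1, an endocytic adaptor, was at least 2.01-fold higher, with 166 in treated and 82.8 in untreated cells. Bpifb4 was at least 2.84-fold lower, with 67.7 in treated and 193 in untreated cells, and Vat1l at least 2.59-fold lower, with 69.5 and 180 in the same order. Fgf3, a fibroblast growth factor, Slamf9, and Tal1, a factor of blood progenitors related to Lyl1, were at least 1.71-fold, 1.37-fold and 1.36-fold lower.

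The called genes were also read on the 24 h array, which has its own untreated cells. Of the 37 higher genes 33 were measured there, with a median of 0.47, 28 of them above 0 and 4 at least 2-fold higher. Of the 61 lower genes all 61 were measured, with a median of -0.28, 52 of them below 0 and 0 at least 2-fold lower. Over the 15747 genes measured on both arrays, 10747 had the same sign. The lower genes, Lyl1 at -0.47 and Cpa3 at -0.21 among them, thus had smaller ratios at 24 h. Both sets were chosen for their large ratios at 72 h, so smaller values on another array can follow from that choice alone. Treated cells carried the same dye on both arrays, so shared signs cannot tell treatment from a dye effect. The difference between the arrays was not tested, and treatment time and culture age cannot be told apart.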

How the data were processed

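RNA of treated (Cy5) and untreated (Cy3) cells was hybridised together on Agilent 2-colour mouse arrays, 3 on 1 slide with 1 scan. The intensity values, mean signals and median local backgrounds per spot, were deposited by the authors without normalization, and the file headers name version 10.5.1.1 of Agilent Feature Extraction. The deposited log10 ratio, background-subtracted and dye-normalized per the file headers, was turned to log2 as an alternative.

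In R 4.3.3, limma 3.58.1 was used for normexp background correction (offset 50) and loess normalization of each array (span 0.3), control and outlier-flagged spots at weight 0. Channels of different arrays were put on 1 scale by Aquantile. The 72 h array had 41174 probes, with 130 flagged and 0 saturated spots. Probes were named through RefSeq accessions (25245 probes), symbols (6239) or synonyms (1609), using a GRCm38 table for names only, and the others kept the file's name. A gene took its brightest probe and was measured where a share of at least 0.5 of its spots was well above background in both channels. For a gene seen in 1 channel, a bound took as its dim side whichever was higher, its own signal or the lowest well above background. Python 3.11.15 with pandas 2.3.3 made the counts, and the steps were checked on simulated data.

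Genes named are the 15 highest and 15 lowest ratios, list members past 2-fold, 52 chosen genes and 5 bounds per direction. Others, such as list extremes, were named after their values were seen. Some genes that this rule covers are not reported here. The 39 lists, some of which share genes, and all members were chosen with earlier results of these data known. The number of arrays limits the precision.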

Additional observations from a re-analysis of the deposited data

Results flagged for a closer look

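Some called genes had a log2 ratio on the other side of 0, by more than 0.36, on another array of the series. These 7 differences were not tested, since each ratio comes from 1 array. In T cells, Fxyd4 was at 1.33 after 72 h but at -0.37 after 24 h. Cd34 was at -1.79 after 72 h but at 0.77 after 24 h. The other 5 differed between T cells at 72 h and OP9-DL1 stroma given pAsc alone for 24 h. Plac8, a cysteine-rich protein of blood cells, was at -1.42 in T cells and 1.35 in stroma. Cbfa2t3, a corepressor of blood progenitors, was at -1.10 in T cells and 0.59 in stroma. Cd93 was at -1.07 in T cells and 0.41 in stroma, Blnk at -1.02 and 0.49, and Ly6d at -1.01 and 0.48. Plac8 had an intensity of 17309 in treated and 46461 in untreated T cells, and 762 in untreated stroma.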

How the results depend on the processing

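The counts of genes at least 2-fold higher and lower, 37 and 61, depended on the processing. Plain background subtraction gave 117 and 131, an offset of 0 gave 85 and 103, the Agilent log ratio gave 116 and 165, and centring on the median of measured genes gave 110 and 124. Median centring on all probes, which moved the median of all genes to 0.54, gave 1560 and 12, so that 99.2% of calls were higher ones, against 37.8%. A threshold of 1.5-fold gave 315 and 314. Without genes brighter in stroma 22 higher genes were left, by construction. The share of higher genes brighter in stroma, 40.5%, was 13.5% at a 4-fold mark and 24.3% with median scaling of Cy3. The share of lower genes dimmer in stroma, 93.4%, was 78.7% at the 4-fold mark and 55.8% with Agilent calls. Of all 16288 measured genes, 14.0% were brighter and 13.3% dimmer in stroma at the 2-fold mark. At the 4-fold mark only 269 of all measured genes were brighter. On the dimmer side, 291 had a log2 difference under -4 and 565 one between -4 and -2. A lower share at the 4-fold mark thus stands beside a lower share over all genes. Beyond the construction of each alternative, the cause was not tested. No named gene past 2-fold turned its sign under the other background corrections, the Agilent log ratio, either centring or the median over probes. Of the 39 list medians 2 turned their sign with the Agilent log ratio, 10 with centring on measured genes and 24 with centring on all probes. Using the median over bright probes, leaving out genes under a log2 brightness of 8, and calling only genes past 2-fold in both ratios were chosen after seeing the data. No paired analysis was possible because there was 1 array per comparison, and for that reason no replicate could be left out.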
